A study of Mus musculus with 9 samples.

Results

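The genes described here are those that moved in the same direction with both hairpins against Rela in senescent mouse embryonic fibroblasts. Rela encodes p65, a subunit of NF-kB. For each of the 3 replicate numbers, the sample of each hairpin was set against the scrambled-control sample of the same number, which gave 6 pairs, 3 for each hairpin. A gene was a member when all 6 differences in log2 CPM, the count relative to the scaled library total, had the same sign. Of 15369 genes tested, 3820 (24.9%) met this rule: 2037 were higher in every pair (13.3%) and 1783 were lower in every pair (11.6%). The most frequent split among the other genes was 3 of 6 pairs higher (4177 genes). Membership asks only for a direction, so it was read together with a test of both hairpins as 1 group against the control. That test, edgeR's quasi-likelihood test with the replicate number as a block and Benjamini-Hochberg adjustment over all genes tested, is called "the joint test" in what follows, and a gene "rose" or "fell" where its adjusted p was under 0.05.

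The cells were fibroblasts grown from embryos of C57BL/6 mice and made senescent by gamma irradiation. Senescence is a lasting stop of cell division in cells that remain alive and secrete many proteins. At 10 days after irradiation the cells were infected with a lentivirus that expressed a short hairpin RNA. The control group (shScr) carried a scrambled hairpin, and the groups shRela-1 and shRela-2 carried independent hairpins against Rela. Each group had 3 samples, and all 9 shared the irradiation and the lentiviral infection, so there was no unirradiated or uninfected sample among them.

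NF-kB is a family of dimeric transcription factors that includes p65, RelB and the p105/p50 and p100/p52 proteins. In resting cells the dimers are held in the cytoplasm by IkB proteins, and signals that destroy IkB release them to the nucleus. Among the genes that p65 switches on are those of its own inhibitors and partners, and in senescent cells p65 is known for driving many secreted cytokines, chemokines and proteases, the senescence-associated secretory phenotype (SASP).

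Library totals ran from 49774667 to 67963506 counts. Even low counts outnumbered odd ones (a count of 2 occurred 7984 times, of 1 2764 times and of 3 1816 times), and whether both mates of a fragment were counted is not stated, so a count may stand for less than 1 fragment. The summed level of 13 fibroblast markers, led by Col1a1, Col1a2, Col3a1 and Vim, was 36686 to 41767 CPM across the samples, while the summed macrophage and blood cell markers reached at most 628 CPM and the skeletal and cardiac muscle markers at most 825 CPM. The erythroid genes Hba-a1 and Hbb-b1 and the endothelial gene Sox17 had no count. No gene of the 8 marker lists rose or fell in the joint test, where 0.846% of all genes rose and 0.911% fell. With so few calls over all genes, their lack in these lists does not show that the mix of cells was the same. Some sums of these lists went with the groups: the epithelial and keratinocyte sum was 53.6 to 58.3 CPM in shScr, 73.3 to 82.7 CPM in shRela-1 and 59.6 to 66.1 CPM in shRela-2, and the neural and glial sum was 266 to 271, 204 to 210.1 and 284 to 301 CPM. The adipocyte list, with only 4 genes tested, had median log2 differences of 0.53 (shRela-1) and 0.32 (shRela-2). Its genes Pparg and Lpl were higher in all pairs. Its sums were above the control range with shRela-1 and overlapped that range with shRela-2. The macrophage and blood cell medians were 0.07 (shRela-1) and -0.25 (shRela-2), and the sums of the groups overlapped. The part of these lists in the results was not tested. The control titles carry a dataset tag that the hairpin titles lack, so any batch that goes with the tag cannot be told apart from the knockdown. Replicates are not stated to be separate cultures, so the spread behind the p-values is that of these samples and may be technical. Within the control group, sample 2 stood apart: the chi-square per degree of freedom was 106 and 103 in its pairs with the other control samples and 19.1 between those 2 samples. In bulk RNA, fewer cells that express a gene and less RNA of it per cell cannot be told apart.

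Rela (chr19:5637442-5648134, GRCm38) was measured at 85.5, 83.2 and 86.8 CPM in shScr, 14.1, 13.6 and 13.2 CPM in shRela-1 and 14.8, 13.5 and 13.4 CPM in shRela-2. Every hairpin sample lay far below every control sample, and the hairpin groups overlapped each other. The log2 difference was -2.63 ± 0.048 (SE) in the joint test (adjusted p = 6.66e-07, the lowest of all genes), and -2.64 (shRela-1) and -2.62 (shRela-2) for each hairpin, so that 16.1% of the control level was left.

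Of the 15369 genes, 130 rose (0.846%) and 140 fell (0.911%) in the joint test. All 270 had their 6 pairs in one direction, and none with 5 of 6 pairs in one direction passed. They made up 7.07% of the members. In 245 of the 270 genes (90.7%) all 6 hairpin samples lay beyond all 3 control samples, against 13.2% of all genes tested. The test chose the genes on these same samples. So this share, the agreement of the pairs and the sizes that follow describe the chosen genes and add no evidence. The changes were mostly small: the median size was 0.36 on the log2 scale for the genes that rose and 0.48 for those that fell, against 0.13 over all genes tested. Only Rec8, a meiotic cohesin gene counted at 0.299 to 1.5 CPM, rose by more than 2-fold. The 10 genes that fell by more than 2-fold were Rela, Gpr84, Tnfrsf26, Gjb2, Gper1, Ngef, Yes1, Heyl, Tnfsf11 and Dnajc19. Rec8, Gpr84, Gper1, Ngef and Heyl were named after their values were seen. The genes that changed also had higher levels than most, with a median level of 5.91 log2 CPM (rose) and 4.96 log2 CPM (fell) against 4.0 over all genes. The gene nearest the edge of the pair rule among the called genes was Twf1, an actin-binding protein, whose weakest pair differed by 0.14.

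The number of calls rested on the 3 control samples. Without shScr replicate 1, 2 or 3 the joint test called 2, 1 and 2 genes, and without 1 hairpin sample it called 32 to 103. A model with a mean for each of the 3 groups has a spread that does not include the difference between hairpins. It called 5763 of the 15369 genes for the mean of both hairpins, the 270 among them. With 1 control sample left out it called 4388 to 4686 genes, again with all 270. The 270 were chosen on these same samples and this model calls many genes, so keeping them adds no evidence for the calls. Leaving out control samples from this model was added after the data were seen. The joint test counts a difference between the hairpins as error, which favours genes with like responses to both.

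**Figure D1:**
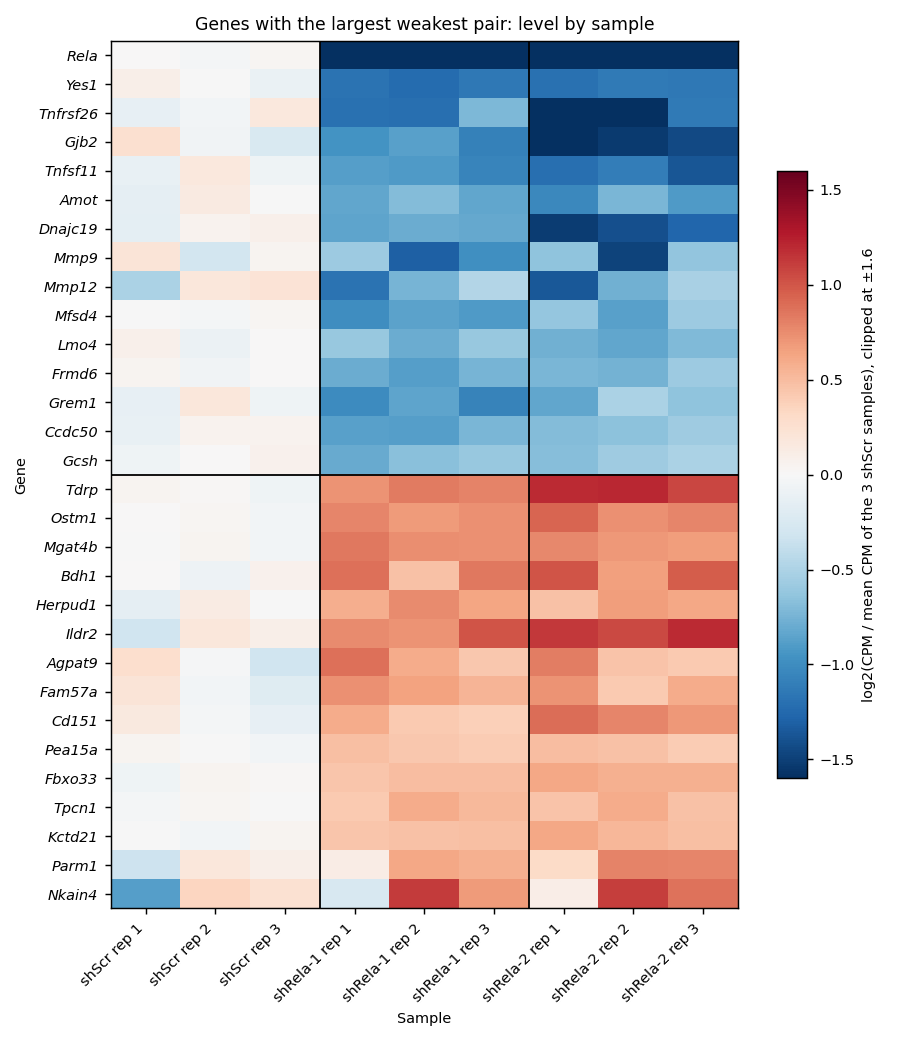
Level of the 15 falling and 15 rising genes with the largest weakest pair (rows) in each of the 9 samples (columns), as log2 of the CPM over the mean CPM of the 3 shScr samples, with the colour scale clipped at 1.6. The falling genes are blue in all 6 hairpin samples, and Mmp12 and Nkain4 also vary among the shScr samples.

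Inhibitors and partners of p65 were among the genes that fell. Of 52 tested genes in a list of NF-kB canonical and feedback targets, 23 were lower in all 6 pairs (44.2%, against 11.6% of all genes) and 2 were higher (Gadd45b and Tnfrsf1b). Of these, 7 fell in the joint test (Nfkbia, Nfkbie, Relb, Nfkb1, Mmp9, Ier3 and Tlr2) and none rose. The list's median log2 difference was -0.28, against 0.00 over all genes. Its median was below 0 in each of the 6 pairs, at -0.14, -0.09 and -0.33 in the shRela-1 pairs and -0.48, -0.44 and -0.57 in the shRela-2 pairs.

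Nfkbia encodes IkBα, the inhibitor whose resynthesis ends an NF-kB response. It was measured at 29.5, 30.5 and 31.9 CPM in shScr, 21.5, 24.1 and 20.9 CPM in shRela-1 and 20.1, 19.3 and 19.9 CPM in shRela-2. The hairpin samples were all lower than the controls, and shRela-2 was lower than shRela-1. The log2 difference was -0.55 ± 0.081 (SE) (adjusted p = 0.0264). Nfkbie, which encodes IkBε, gave 5.4, 5.23 and 5.95 CPM in shScr, 3.61, 3.56 and 3.06 CPM in shRela-1 and 3.78, 3.69 and 3.17 CPM in shRela-2, again with no overlap between the hairpin and control samples. It fell by 0.67 on the log2 scale (adjusted p = 0.0264).

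The genes of NF-kB subunits other than p65 fell less than Rela itself. Relb was at 19.4, 19.5 and 21.6 CPM in shScr, 14.3, 14.2 and 12.4 CPM in shRela-1 and 13.4, 12.3 and 14.2 CPM in shRela-2, a difference of -0.58 ± 0.081 (SE) with an adjusted p of 0.0235. The control samples were all above the hairpin samples, while the 2 hairpin groups overlapped. Nfkb1, the gene of p105/p50, was at 65.2, 60.7 and 63.7 CPM in shScr, 52.1, 51.2 and 50.1 CPM in shRela-1 and 53.3, 50.6 and 53.9 CPM in shRela-2, and the difference of -0.28 ± 0.045 (SE) passed the joint test with an adjusted p of 0.0314. Nfkb2, the gene of p100/p52, was lower in all 6 pairs at -0.22 and did not pass (adjusted p = 0.116).

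Tlr2, a receptor for bacterial lipoproteins that signals to NF-kB, was at 7.88, 8.78 and 8.11 CPM in shScr, 6.72, 5.72 and 5.87 CPM in shRela-1 and 6.23, 5.86 and 5.34 CPM in shRela-2. All 6 hairpin samples were below all 3 controls, and the log2 difference was -0.47 ± 0.087 (SE) (adjusted p = 0.0468). Ier3, an immediate early gene with roles in cell survival, was at 79.6, 64.9 and 70.5 CPM in shScr, 64.4, 48.8 and 47.8 CPM in shRela-1 and 57.9, 50.3 and 51.6 CPM in shRela-2. The highest hairpin sample and the lowest control sample were close but did not overlap. Ier3 fell by 0.43 on the log2 scale, with an adjusted p of 0.0212.

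The promoters of Nfkbia, Nfkbie, Ier3 and Tlr2 are shown because each holds the NF-kB consensus motif, in capitals. For Relb, Nfkb1 and Mmp9, the other listed targets that fell, no match was found or no promoter was available. Sequences are from RefSeq (GRCm38.p6), 5′ to 3′ on the gene's strand, from 250 bases before to 10 bases after the annotated start. Nfkbia lies at chr12:55492638-55492897, minus strand, Nfkbie at chr17:45555450-45555709, plus strand, Ier3 at chr17:35821463-35821722, plus strand and Tlr2 at chr3:83841599-83841858, minus strand. In Tlr2 the longer run of capitals is a pair of overlapping matches.
Nfkbia: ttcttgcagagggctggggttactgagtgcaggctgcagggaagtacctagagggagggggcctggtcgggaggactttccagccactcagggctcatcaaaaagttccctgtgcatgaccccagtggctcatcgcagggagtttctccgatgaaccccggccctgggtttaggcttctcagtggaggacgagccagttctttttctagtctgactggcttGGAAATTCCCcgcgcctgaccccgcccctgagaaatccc
Nfkbie: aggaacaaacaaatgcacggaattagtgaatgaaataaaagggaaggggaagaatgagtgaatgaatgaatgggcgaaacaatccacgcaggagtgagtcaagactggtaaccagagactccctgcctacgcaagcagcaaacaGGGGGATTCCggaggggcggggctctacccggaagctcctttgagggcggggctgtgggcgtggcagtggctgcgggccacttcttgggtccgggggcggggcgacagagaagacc
Ier3: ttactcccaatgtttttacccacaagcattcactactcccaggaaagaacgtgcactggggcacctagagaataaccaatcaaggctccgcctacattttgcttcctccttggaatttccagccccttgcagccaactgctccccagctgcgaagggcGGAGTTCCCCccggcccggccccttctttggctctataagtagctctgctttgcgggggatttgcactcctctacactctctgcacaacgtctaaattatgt
Tlr2: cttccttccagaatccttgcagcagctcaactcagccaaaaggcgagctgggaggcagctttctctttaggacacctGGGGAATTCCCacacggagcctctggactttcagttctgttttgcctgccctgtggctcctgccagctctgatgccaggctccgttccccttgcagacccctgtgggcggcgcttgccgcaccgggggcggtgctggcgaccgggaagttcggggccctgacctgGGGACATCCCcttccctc

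The motif was searched by its consensus on both strands, in windows from 250 bases before to 50 bases after the start. It starts at position -29 in Nfkbia, -106 in Nfkbie and -92 in Ier3, counted from the annotated start. It was found in 8.46% of all promoters in the RefSeq table and in 12.4% of those matched to genes tested (1488 of 11999). Of the genes that fell and had a promoter in the table, 27 of 114 (23.7%) held it, against 11 of 99 (11.1%) of the genes that rose. Among all members the shares were 15.2% (lower in all pairs) and 11.3% (higher in all pairs). In the list of NF-kB targets 21 of 37 (56.8%) held it. A match is a match of letters, and it does not show that p65 was bound there.

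Other classical targets were lower in all 6 pairs without passing the joint test, and several of them were much lower with 1 hairpin. Ccl2, a chemokine that attracts monocytes, was at 232, 218 and 253 CPM in shScr, 156, 153 and 145 CPM in shRela-1 and 59.4, 56.2 and 51.6 CPM in shRela-2. The 3 groups did not overlap, and the differences were -0.63 (shRela-1) and -2.07 (shRela-2) (joint adjusted p = 0.218). Plau, the gene of urokinase, was at 148, 132 and 121 CPM in shScr, 107, 85.9 and 81.7 CPM in shRela-1 and 46.5, 45 and 51.4 CPM in shRela-2, with differences of -0.55 (shRela-1) and -1.48 (shRela-2) and a joint adjusted p of 0.157. Ccl20, C3 and Saa3 were also lower in all 6 pairs, with joint adjusted p-values of 0.201, 0.199 and 0.161. Irf1 showed the opposite order, at -1.15 (shRela-1) and -0.17 (shRela-2). The comparisons of each hairpin with shScr share the control samples, so their values are given side by side. In edgeR's direct test of shRela-2 against shRela-1, Ccl2 differed by -1.44 on the log2 scale (adjusted p = 6.39e-16).

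Among other well-known p65 targets, Tnfaip3, Il6 and Cxcl1 were not members. Tnfaip3, the gene of the inhibitor A20, was at 15.5, 13.8 and 14.8 CPM in shScr, 14.9, 16 and 15.8 CPM in shRela-1 and 7.6, 6.29 and 7.69 CPM in shRela-2. The shRela-1 samples lay within or above the control range and the shRela-2 samples were below it. Il6 had log2 differences of 0.30 (shRela-1) and -1.25 (shRela-2). Cxcl1 was at 2.91, 3.38 and 2.16 CPM in shScr, 3.38, 4.51 and 0.668 CPM in shRela-1 and 0.811, 1.09 and 0.338 CPM in shRela-2, so that 1 of the 3 shRela-1 samples was also below the controls. Icam1, an adhesion molecule, was a member, lower in all 6 pairs at -0.13 (adjusted p = 0.277), and the groups overlapped. In the list of upstream NF-kB signalling components (receptor adaptors, IkB kinases and the like), 8 of 37 were higher (21.6%) and 5 lower (13.5%) in all pairs. The shares over all genes were 13.3% and 11.6%, and no gene of this list passed the joint test.

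**Figure D2:**
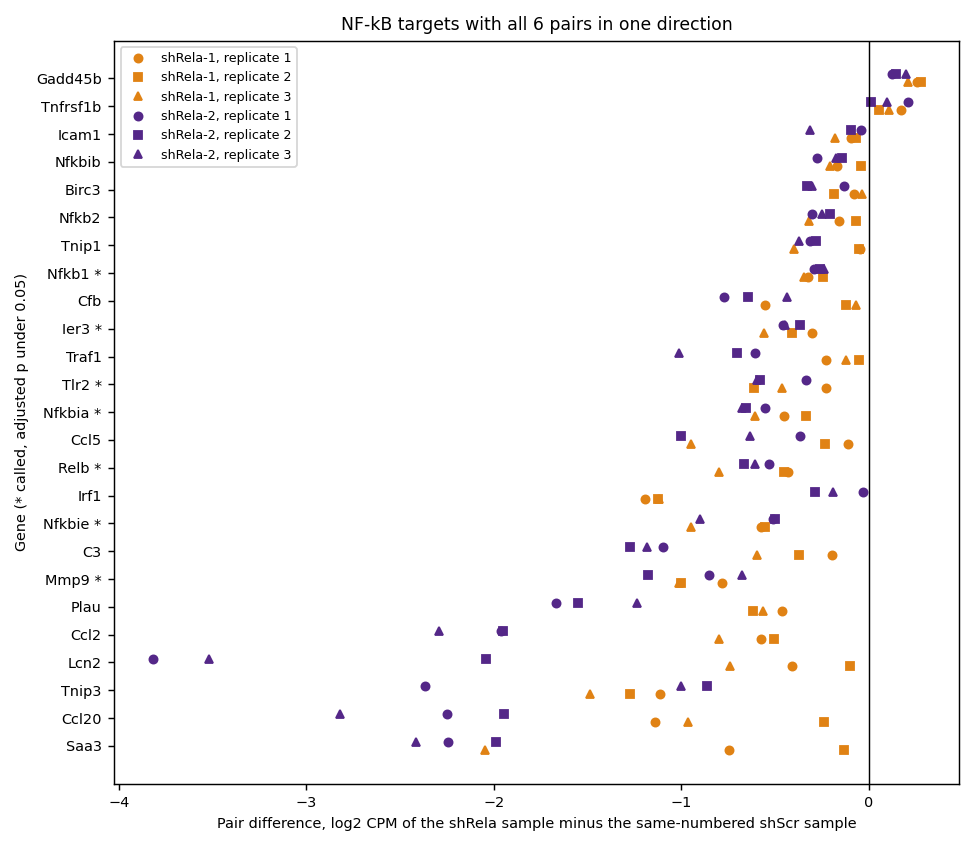
Each point is 1 same-numbered pair: log2 CPM of the shRela sample minus that of the shScr sample, for the 25 NF-kB targets with all 6 pairs in one direction (shRela-1 orange, shRela-2 purple, symbols for replicate numbers). The 7 genes that fell in the joint test (asterisks) lie between -0.23 (Tlr2) and -1.18 (Mmp9) in every pair, whereas Ccl2, Lcn2 and Ccl20 are much lower with shRela-2.

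Among secreted signals, 9 of 35 tested SASP chemokines and cytokines were lower in all pairs (25.7%) and none was higher, with a list median of -0.32. The median was nearer 0 with shRela-1, at -0.01, -0.01 and -0.25 in its pairs, than with shRela-2, at -0.60, -0.50 and -0.56. The 3 that fell were Tnfsf11, Lif and Cx3cl1. Tnfsf11 encodes RANKL, the cytokine that drives osteoclast formation. It was at 5.03, 6.12 and 5.18 CPM in shScr, 2.96, 2.92 and 2.61 CPM in shRela-1 and 2.35, 2.53 and 2.1 CPM in shRela-2, with every hairpin sample below every control, and it fell by 1.08 on the log2 scale (adjusted p = 0.0157). Lif, a cytokine of the IL-6 family, was at 32.7, 28.6 and 33.3 CPM in shScr, 26, 23.1 and 24.3 CPM in shRela-1 and 24.3, 21.1 and 23.9 CPM in shRela-2. No hairpin sample reached the control range, and the difference was -0.41 ± 0.057 (SE) (adjusted p = 0.0235). Cx3cl1, the membrane-bound chemokine fractalkine, differed by -0.33 ± 0.052 (SE) (adjusted p = 0.0317). Cxcl14, a further chemokine, was not a member, at 0.07 (shRela-1) and -0.51 (shRela-2).

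Proteases were mixed. Of 37 tested SASP proteases and protease inhibitors, 7 were lower (18.9%) and 12 higher (32.4%) in all pairs, and the median was 0.02. The shares over all genes were 11.6% and 13.3%. The 4 that fell were Mmp9, Mmp12, Mmp3 and Serpina3g, and Reck was the only one that rose. Mmp9, a gelatinase, was at 12.7, 8.94 and 11.3 CPM in shScr, 7.36, 4.44 and 5.57 CPM in shRela-1 and 7.01, 3.93 and 7.07 CPM in shRela-2. The hairpin samples were all below the controls, although values also went with the replicate number. The difference was -0.92 ± 0.10 (SE) (adjusted p = 0.0145). Mmp12, the macrophage elastase, was at 13.6, 21.9 and 22.5 CPM in shScr, 8.55, 11.5 and 14 CPM in shRela-1 and 7.55, 11.3 and 13.5 CPM in shRela-2, and here control sample 1 was low and the groups overlapped. The difference within pairs was -0.80 ± 0.071 (SE) (adjusted p = 0.00604). Mmp3, or stromelysin, likewise varied by replicate number, at 68.5, 31.2 and 48.4 CPM in shScr, 55.3, 21 and 31 CPM in shRela-1 and 43, 19.1 and 27.9 CPM in shRela-2. It fell by 0.61 on the log2 scale (adjusted p = 0.0264). Serpina3g, which has close paralogs that could share its reads, fell by 0.99 (adjusted p = 0.0157).

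Reck encodes a membrane-anchored inhibitor of matrix metalloproteinases, and it moved the other way. It was at 70.2, 68.7 and 67.6 CPM in shScr, 92.8, 105 and 102 CPM in shRela-1 and 115, 123 and 98.9 CPM in shRela-2. All hairpin samples were above all controls, and the difference was 0.62 ± 0.088 (SE) (adjusted p = 0.024). Among the members that did not pass were Mmp2, Mmp14 and Adam10, higher in all pairs, and Mmp10, Plau and Serpinb2, lower in all pairs.

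Of the tumour necrosis factor superfamily, 5 of 32 tested genes were lower (15.6%) and 6 higher (18.8%) in all pairs, with a median of 0.00. The shares over all genes were 11.6% and 13.3%. Tnfrsf26, a receptor of the family, was at 7.52, 7.95 and 9.2 CPM in shScr, 3.59, 3.57 and 5.0 CPM in shRela-1 and 2.49, 2.32 and 3.76 CPM in shRela-2. The control samples were all higher than the hairpin samples, and the fall of 1.27 on the log2 scale had an adjusted p of 0.024. Tnfrsf10b, the death receptor for TRAIL and a p53 target, rose by 0.24 (adjusted p = 0.0479).

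Components of Hippo signalling, which restrains the coactivators YAP and TAZ, were among the falling genes with the largest weakest pair. Of 36 tested genes of the pathway and its targets, 6 were lower in all pairs (16.7%, against 11.6% of all genes). These were Wwtr1, Amot, Tead2, Yes1, Wwc2 and Frmd6. More of the list, 11 genes, were higher in all pairs (30.6%, against 13.3% of all genes), and the list median was 0.05. All but Wwtr1 of the lower genes fell in the joint test, and 1 gene, the TEAD cofactor Vgll3, rose (0.40, adjusted p = 0.0368). Yes1 encodes a Src-family kinase that phosphorylates YAP. It was at 22.3, 20.8 and 19.4 CPM in shScr, 9.2, 8.89 and 9.45 CPM in shRela-1 and 9.15, 9.49 and 9.44 CPM in shRela-2, and the 6 hairpin samples lay in a narrow range far below the controls. The difference of -1.17 ± 0.064 (SE) (adjusted p = 0.00133) was almost the same with each hairpin, -1.18 (shRela-1) and -1.15 (shRela-2). Amot, a YAP-binding junction protein, was at 56.9, 69.2 and 62.4 CPM in shScr, 35.2, 38.7 and 35.5 CPM in shRela-1 and 30.7, 38 and 33.4 CPM in shRela-2 and differed by -0.83 ± 0.057 (SE) (adjusted p = 0.00315). Frmd6, an upstream FERM-domain protein, was at 235, 219 and 228 CPM in shScr, 132, 124 and 136 CPM in shRela-1 and 137, 134 and 153 CPM in shRela-2, again without overlap, and differed by -0.75 ± 0.056 (SE) (adjusted p = 0.00441). The transcription factor gene Tead2 fell by 0.40 on the log2 scale (adjusted p = 0.0167). The canonical YAP target Ctgf was higher in all pairs and did not pass.

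In TGF-β and BMP signalling, 12 of 45 tested genes were lower in all pairs (26.7%) and 6 were higher, with a median of -0.05. The 4 that fell act at different levels of the pathway. Grem1, a secreted BMP antagonist, was at 186, 231 and 193 CPM in shScr, 102, 114 and 97 CPM in shRela-1 and 114, 144 and 129.7 CPM in shRela-2. No hairpin sample reached the control range, and the difference was -0.80 ± 0.11 (SE) (adjusted p = 0.0216). Inhba, which encodes the activin A subunit, was at 330.5, 348 and 340.0 CPM in shScr, 246, 251 and 251 CPM in shRela-1 and 205, 239.9 and 242 CPM in shRela-2 and fell by 0.51 on the log2 scale (adjusted p = 0.0167). The receptor genes Bmpr1a and Bmpr2 fell by 0.37 and 0.33 (adjusted p = 0.0494 and 0.0216). Of the 45 WNT signalling genes tested, 1 fell: the secreted antagonist Dkk2, at -0.54 (adjusted p = 0.00816).

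At the cell surface, the gap junction gene Gjb2 (connexin 26) was at 29.1, 23.6 and 20.6 CPM in shScr, 12.6, 13.4 and 11.6 CPM in shRela-1 and 7.45, 8.43 and 8.99 CPM in shRela-2. All hairpin samples were below all controls, with shRela-2 lower than shRela-1, and the fall was 1.22 on the log2 scale (adjusted p = 0.0388). Cd44, the hyaluronan receptor, was at 1196, 1194 and 1206 CPM in shScr, 868, 859 and 894 CPM in shRela-1 and 831, 830.0 and 924 CPM in shRela-2. The hairpin samples were close to each other and well apart from the controls, and the difference was -0.47 ± 0.041 (SE) (adjusted p = 0.00604). Ildr2, a relative of tricellular junction proteins, was at 7.1, 10.0 and 9.39 CPM in shScr, 14.9, 14.6 and 17.8 CPM in shRela-1 and 19.3, 18.4 and 20.2 CPM in shRela-2 and rose by 0.99 ± 0.14 (SE) (adjusted p = 0.0251). In the list of gap and tight junction genes, 6 of 27 were lower in all pairs (22.2%, against 11.6% of all genes) and 1 was higher.

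Further genes among the 15 falling ones with the largest weakest pair belong to no common list. Dnajc19, a cochaperone of the mitochondrial import motor, was at 11.1, 13 and 13.2 CPM in shScr, 6.92, 7.17 and 7.06 CPM in shRela-1 and 4.36, 4.7 and 5.18 CPM in shRela-2, and its fall of 1.07 on the log2 scale had an adjusted p of 0.0393. Lmo4, a LIM-only transcriptional cofactor, was at 42.8, 37.8 and 40.4 CPM in shScr, 26.4, 23.2 and 26.5 CPM in shRela-1 and 23.6, 22.7 and 24.7 CPM in shRela-2. Both sets of hairpin samples overlapped each other and lay below the controls, and Lmo4 differed by -0.72 ± 0.058 (SE) (adjusted p = 0.00473). Gcsh, a subunit of the mitochondrial glycine cleavage system, and Ccdc50, a ubiquitin-binding protein, fell by 0.64 and 0.73 (adjusted p = 0.00536 and 0.00971). Mfsd4, a transporter-like membrane protein, fell by 0.80 (adjusted p = 0.0261), and 22.8% of its exon bases overlap another gene, Gm26892, so that its reads cannot be assigned with certainty.

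The list with the largest share of members higher in all pairs was that of lysosomal enzymes and membrane proteins, at 23 of 45 (51.1%, against 13.3% of all genes). Only Lipa was lower in all pairs. The list's median difference was small, at 0.11 on the log2 scale, and was 0.11 and 0.12 with shRela-1 and shRela-2. Over all lists and other genes, those higher in all pairs had a median level of 5.46 log2 CPM, against 4.0 for all genes tested. The share over all genes was not matched for level, for this list or the others. The 2 genes that rose were Ostm1 and Gla. Ostm1, the partner of the lysosomal chloride transporter ClC-7, was at 44.1, 44.6 and 42.6 CPM in shScr, 75.1, 70.2 and 72.7 CPM in shRela-1 and 83.5, 72.4 and 75.1 CPM in shRela-2. Every hairpin sample was far above every control sample, and the difference was 0.77 ± 0.058 (SE) (adjusted p = 0.00441). Gla, the lysosomal α-galactosidase, was at 21.3, 18.9 and 18.4 CPM in shScr, 29.3, 23.5 and 23.6 CPM in shRela-1 and 28.4, 22.6 and 21.4 CPM in shRela-2 and rose by 0.34 (adjusted p = 0.0476). The other members of the list differed little: Lamp1, a membrane glycoprotein, was at 972, 966 and 946 CPM in shScr, 1093, 1060.1 and 1057 CPM in shRela-1 and 1019, 989.7 and 988 CPM in shRela-2, and its difference of 0.11 had an adjusted p of 0.319. Ctsd, the protease cathepsin D, differed by 0.13 with overlapping groups (adjusted p = 0.278). Lipa, the lysosomal acid lipase, stood apart in size, at -2.16 (shRela-1) and -0.35 (shRela-2).

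The proton pump that acidifies lysosomes was mixed. Of 17 tested subunits and accessory proteins, 7 were higher (41.2%) and 2 lower (11.8%) in all pairs, against 13.3% and 11.6% of all genes. Atp6v1d and Atp6ap2 both rose by 0.26 (adjusted p = 0.0491 for each), while Atp6v0d1, a subunit of the membrane sector, was at 127, 129 and 128 CPM in shScr, 90.0, 88.9 and 90.2 CPM in shRela-1 and 78.3, 85.4 and 92 CPM in shRela-2. All its hairpin samples were below the controls, and it fell by 0.55 on the log2 scale (adjusted p = 0.00947). Tpcn1, an endolysosomal cation channel, was at 66.8, 69.8 and 67.4 CPM in shScr, 90.6, 103 and 97.5 CPM in shRela-1 and 93.6, 102 and 93.9 CPM in shRela-2 and rose by 0.51 ± 0.044 (SE) (adjusted p = 0.00598).

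In the secretory pathway the counts also leaned upward. Of 52 tested genes for Golgi glycosyltransferases and N-glycan processing, 16 were higher in all pairs (30.8%) and 4 were lower, with a median of 0.11. Mgat4b, which adds a branch to N-glycans, was at 44.6, 46.2 and 43.4 CPM in shScr, 80.0, 75.2 and 74.5 CPM in shRela-1 and 76.3, 72.1 and 71.4 CPM in shRela-2. The hairpin samples were all well above the controls and overlapped each other, and the difference was 0.74 ± 0.051 (SE) (adjusted p = 0.00315). Man1b1, a mannosidase that marks misfolded glycoproteins, and Galnt7, which extends O-glycans, rose by 0.36 and 0.42 (adjusted p = 0.0167 and 0.0352).

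In the unfolded protein and integrated stress response list, 12 of 42 were higher in all pairs (28.6%), 2 were lower, and the median was 0.05. Herpud1, a stress-induced component of endoplasmic reticulum protein degradation, was at 41.1, 49.8 and 45.3 CPM in shScr, 67.8, 76.9 and 70.1 CPM in shRela-1 and 62.9, 72.5 and 69.5 CPM in shRela-2. No hairpin sample reached the control range, and the difference was 0.63 ± 0.05 (SE) (adjusted p = 0.00473). Pdia6, a protein disulphide isomerase, was at 504, 459 and 466 CPM in shScr, 631, 568 and 568 CPM in shRela-1 and 613, 584 and 563 CPM in shRela-2 and rose by 0.30 (adjusted p = 0.0183). Sesn2, a stress-induced inhibitor of mTOR signalling, rose by 0.44 (adjusted p = 0.0496). The chaperone genes Hspa5 and Calr were higher in all pairs, at 0.18 and 0.14, and did not pass (adjusted p = 0.0753 and 0.104).

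Oxidative phosphorylation genes showed a similar small shift, with 23 of 49 higher in all pairs (46.9%), 3 lower and a median of 0.08. Only Ndufa4, a subunit of the respiratory chain, rose in the joint test (0.31, adjusted p = 0.0446). Cox4i1 and Atp5b illustrate the rest, at 0.10 and 0.07 (adjusted p = 0.318 and 0.395). Ribosome biogenesis genes leaned the other way: 20 of 42 genes in the MYC and ribosome biogenesis list were lower in all pairs (47.6%) and 3 were higher, with a median of -0.11. Fbl, the nucleolar methyltransferase fibrillarin, was at 61.9, 63.3 and 64.1 CPM in shScr, 48.5, 50.8 and 46.4 CPM in shRela-1 and 46.5, 52.4 and 51.9 CPM in shRela-2. It was the only gene of that list to fall, by 0.35 on the log2 scale (adjusted p = 0.0264). Myc itself differed by -0.06 (shRela-1) and -0.29 (shRela-2), with overlapping groups.

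Scaling by DESeq2's size factors in place of TMM left these lists almost as they were: 24 and 1 lysosomal genes, 23 and 3 oxidative phosphorylation genes, 18 and 3 Golgi genes and 3 and 20 ribosome biogenesis genes were then higher and lower in all pairs. With the further demand that every pair differ by at least 0.1 on the log2 scale, 748 genes were higher (4.87% of all tested) and 771 lower (5.02%). The lysosomal counts were then 7 and 1, those of oxidative phosphorylation 4 and 0, of the Golgi list 6 and 0, of ribosome biogenesis 1 and 6, and of the NF-kB targets 1 and 15. So the lysosomal and respiratory shifts were regular in sign and small in size.

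**Figure D3:**
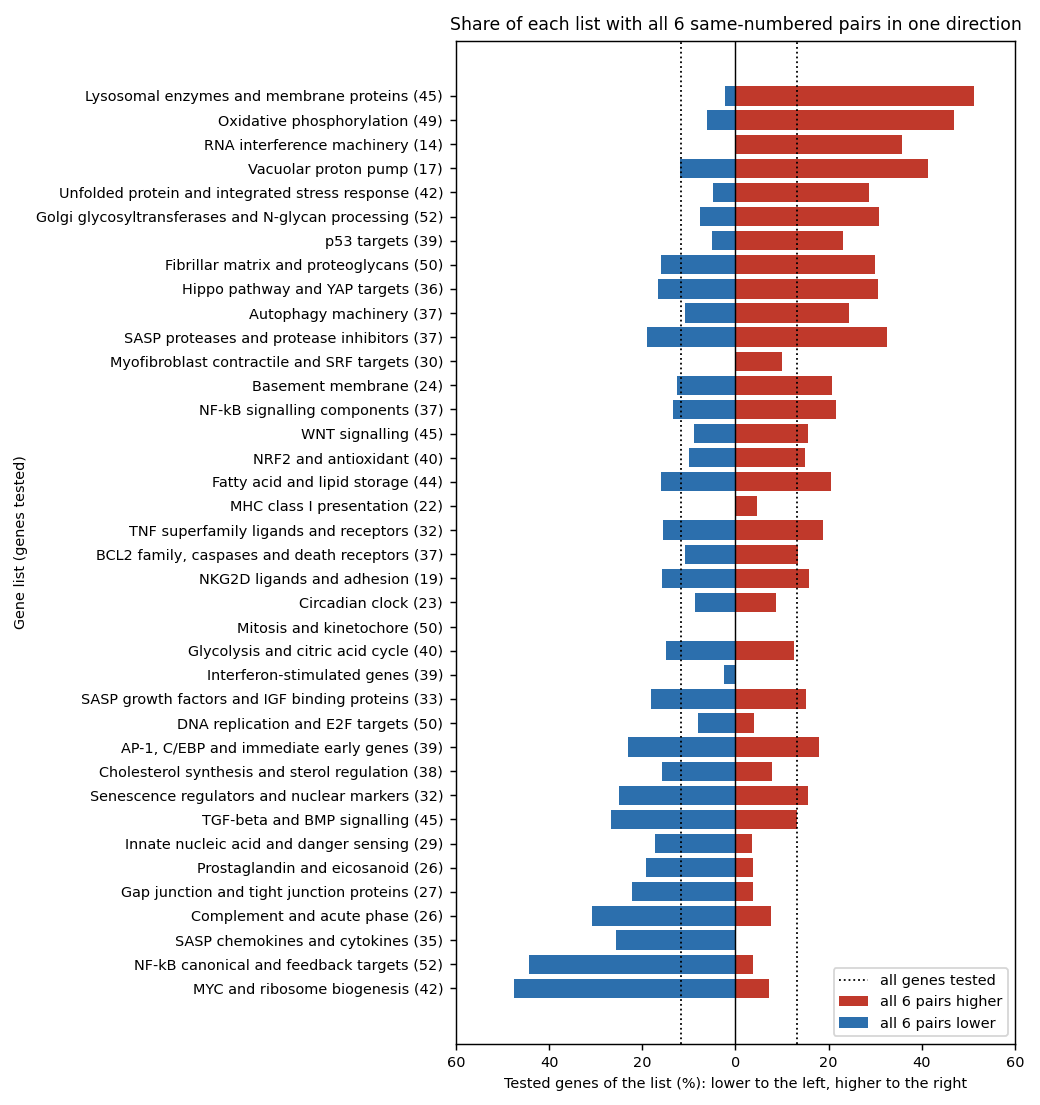
Percent of the tested genes of each of 38 lists with all 6 pairs lower (blue, to the left) or higher (red, to the right), with dotted lines for all genes tested (11.6% lower, 13.3% higher). Lysosomal genes (51.1% higher) stand at the top, and NF-kB targets (44.2% lower) and ribosome biogenesis genes (47.6% lower) at the bottom.

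Outside the lists above, the rising genes with the largest weakest pair included Tdrp, Bdh1, Cd151, Pea15a and Fbxo33. Tdrp was at 5.07, 5.0 and 4.67 CPM in shScr, 8.12, 8.75 and 8.54 CPM in shRela-1 and 11.2, 11.3 and 10.3 CPM in shRela-2 and rose by 0.98 ± 0.14 (SE) (adjusted p = 0.0251). Bdh1, the mitochondrial hydroxybutyrate dehydrogenase of ketone body metabolism, was at 10.8, 10.1 and 11.2 CPM in shScr, 19.7, 14.7 and 19.1 CPM in shRela-1 and 21.5, 16.8 and 20.9 CPM in shRela-2, with no overlap, and rose by 0.80 (adjusted p = 0.0117). Cd151, a tetraspanin that binds laminin-receptor integrins, was at 139, 122 and 114 CPM in shScr, 189, 168 and 163 CPM in shRela-1 and 233, 215 and 202 CPM in shRela-2. Its hairpin samples were all above the controls, with shRela-2 above shRela-1, and the difference was 0.64 ± 0.11 (SE) (adjusted p = 0.0409). Pea15a, a death-effector-domain protein that binds ERK, was at 277, 268 and 262 CPM in shScr, 376, 364 and 357 CPM in shRela-1 and 379.9, 374 and 357 CPM in shRela-2. It rose by 0.45 ± 0.038 (SE) (adjusted p = 0.00536), with nearly equal responses of 0.44 (shRela-1) and 0.46 (shRela-2). Fbxo33, an F-box protein, rose by 0.53, and Kctd21, a cullin adaptor, by 0.50 (adjusted p = 0.0167 and 0.0235). Parm1 and Nkain4 rose by 0.55 and 0.70 (adjusted p = 0.0242 and 0.0317), although control sample 1 was low in both and the groups overlapped. Agpat9 (now Gpat3), an acyltransferase of triglyceride synthesis, and Fam57a (now Tlcd3a) rose by 0.62 each (adjusted p = 0.0318 and 0.0251). Of the exon bases of Fam57a, 43.5% overlap Gemin4 and Glod4 on the other strand, and of those of Agpat9, 30% overlap 4930458D05Rik, and the library kit does not mark strand. The same holds for 13.7% of Bdh1 (Gm15743), 11% of Ildr2 (5330438I03Rik), 12.9% of Twf1 (Irak4) and 39.5% of Gpr84 (Gm49482).

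A pair of close paralogs, singled out after their values were seen, moved in opposite directions. Arf1, a small GTPase of Golgi traffic, was at 468, 463 and 456 CPM in shScr, 376, 355 and 359 CPM in shRela-1 and 371, 367 and 394 CPM in shRela-2 and fell by 0.32 on the log2 scale (adjusted p = 0.024). Arf2 was at 65.4, 65.3 and 58.1 CPM in shScr, 97.9, 97.8 and 93.8 CPM in shRela-1 and 88, 88.9 and 82 CPM in shRela-2 and rose by 0.54 (adjusted p = 0.0179). In neither gene did hairpin and control samples overlap. Whether these paralogs share reads was not measured, and how any shared reads were counted is not stated in the labels.

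Among senescence regulators, 8 of 32 tested genes were lower (25%) and 5 higher (15.6%) in all pairs, with a median of -0.04. The shares over all genes were 11.6% and 13.3%. Trp53, the gene of p53, was at 112, 115 and 115 CPM in shScr, 93.1, 99.8 and 92.1 CPM in shRela-1 and 93.2, 96.7 and 95.5 CPM in shRela-2. All hairpin samples were lower than all controls, by -0.26 ± 0.041 (SE) (adjusted p = 0.0307). In the list of p53 targets 9 of 39 were higher in all pairs (23.1%) and 2 were lower, with a median of 0.02. Cdkn1a, the gene of the cell cycle inhibitor p21, was at 919, 1006 and 967 CPM in shScr, 1012, 1113 and 1036 CPM in shRela-1 and 1080.0, 1255 and 1112 CPM in shRela-2, higher in all 6 pairs at 0.19, and did not pass (adjusted p = 0.131). Cdkn2a, the gene of p16 and p19ARF, differed by -0.05 with pairs in both directions. The NKG2D ligand gene Ulbp1, whose product marks stressed cells for natural killer cells, was at 6.9, 5.66 and 6.34 CPM in shScr, 11.7, 7.22 and 9.86 CPM in shRela-1 and 10.7, 9.35 and 10.4 CPM in shRela-2 and rose by 0.64 (adjusted p = 0.031).

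Matrix genes were mixed. Of 50 tested fibrillar matrix and proteoglycan genes, 15 were higher in all pairs (30%) and 8 were lower, with a median of 0.06. Col8a1, a short-chain collagen, was at 565, 682 and 646 CPM in shScr, 719.8, 889.6 and 824 CPM in shRela-1 and 727, 877 and 767 CPM in shRela-2 and rose by 0.34 (adjusted p = 0.0172). Plod2, a collagen lysyl hydroxylase, and Efemp1, or fibulin-3, rose by 0.32 and 0.22 (adjusted p = 0.0261 and 0.0491), the latter with overlapping groups and a level that went with the replicate number. Col5a3, a minor fibrillar collagen chain, was at 187, 180.3 and 214 CPM in shScr, 129, 125 and 137 CPM in shRela-1 and 114, 133 and 146 CPM in shRela-2 and fell by 0.57 on the log2 scale (adjusted p = 0.0101). In the basement membrane list, Nid2 rose by 0.43 and Col15a1 fell by 0.70 (adjusted p = 0.0212 and 0.0314), and for both the groups overlapped.

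The lipid genes that fell included 3 of sterol and fatty acid synthesis or transport. Acly, which makes the acetyl-CoA used for both, was at 319, 304 and 319 CPM in shScr, 241, 224 and 225 CPM in shRela-1 and 208, 204 and 208 CPM in shRela-2. The groups did not overlap, and the difference was -0.53 ± 0.062 (SE) (adjusted p = 0.0167). Acat2, an acetyl-CoA acetyltransferase, and Stard4, a sterol carrier, fell by 0.35 and 0.48 (adjusted p = 0.0352 and 0.0264). The fatty acid and lipid storage list was mixed, with 9 of 44 genes higher (20.5%) and 7 lower (15.9%) in all pairs, against 13.3% and 11.6% of all genes. Acly was the only gene of that list to fall, while Agpat9 and Bdh1, described above, rose. In the cholesterol list as a whole 6 of 38 were lower and 3 higher in all pairs, close to the background, and the list's median was above 0 with shRela-1 (0.17) and below 0 with shRela-2 (-0.26). Among immediate early and C/EBP genes, Egr1 and Cebpg fell by 0.43 and 0.28 (adjusted p = 0.0377 and 0.0334) and Mafk rose by 0.37 (adjusted p = 0.0167).

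Some lists held almost no member. None of 50 mitosis and kinetochore genes had all 6 pairs in one direction, and the list's median was 0.40 with shRela-1 and -0.53 with shRela-2. For DNA replication and E2F targets 2 of 50 were higher and 4 lower in all pairs, with medians of 0.26 and -0.30. Of 39 interferon-stimulated genes 1, Cmpk2, was lower in all pairs. In this list the medians differed between samples of the same group, from -0.86 to 0.15 in the 3 shRela-1 pairs and from -0.31 to 0.50 in the 3 shRela-2 pairs. Of 22 genes of MHC class I presentation 1, Calr, was higher in all pairs. None of the genes in these 4 lists rose or fell in the joint test.

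**Figure D4:**
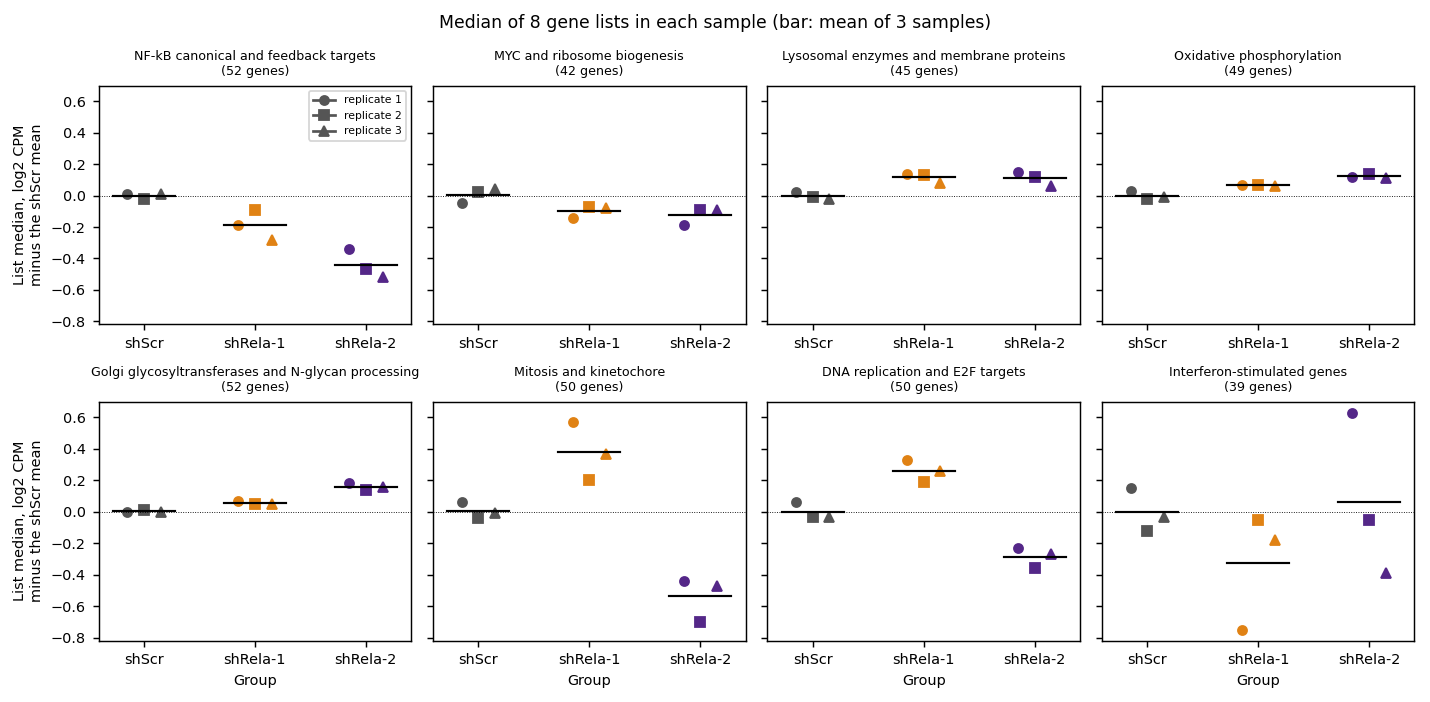
Median over the genes of 8 lists in each sample, as log2 CPM minus the mean of the 3 shScr samples, with a bar at the mean of each group's 3 samples. NF-kB target medians are lower in all 6 hairpin samples (-0.09 to -0.52) and lysosomal medians higher, whereas the mitosis list is high with shRela-1 and low with shRela-2.

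The smallest list with a one-sided count was the RNA interference machinery. In it 5 of 14 tested genes (Dicer1, Ago3, Tnrc6a, Tnrc6b and Tnrc6c) were higher in all pairs (35.7%, against 13.3% of all genes). None was lower, and the list median was 0.00. Tnrc6a, the scaffold of the microRNA silencing complex, was at 77.2, 74.3 and 71.9 CPM in shScr, 99.6, 90.0 and 98.2 CPM in shRela-1 and 99, 97.8 and 101 CPM in shRela-2. No hairpin sample reached the control range, and it rose by 0.39 ± 0.05 (SE) (adjusted p = 0.0204). All 3 groups expressed a hairpin RNA, so the comparison is between hairpins and not with cells that had none.

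The responses of the 270 genes were similar but not equal with the hairpins. shRela-2 differed from shRela-1 in 68 of them (25.2%), against 51.9% of all genes tested, and the joint test selects against such a difference. Where genes rose and the hairpins differed, the rise was larger with shRela-2 in 23 and with shRela-1 in 9 genes. Where genes fell, the fall was larger with shRela-2 in 22 and with shRela-1 in 14. Among all members 1660 differed (43.5%).

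The 3′ untranslated regions (UTRs) of the members were also compared. The 7-base words were ranked by the mean difference between holders and other genes over its standard error, among words with at least 100 holders. The words shown ranked lowest, AGGTGTA with shRela-1 and GAAGCTA with shRela-2, written on the sense strand. They were chosen on these fold changes, so their counts describe the members and test nothing. Holders of AGGTGTA averaged 0.20 lower than all genes on the log2 scale with shRela-1, and holders of GAAGCTA averaged 0.19 lower with shRela-2. Of the 140 genes that fell, 54 (38.6%) held either word, against 15 of the 130 that rose (11.5%) and 15.9% of all genes with a UTR. Both words were in 10.7% of the genes that fell, in none that rose and in 1.47% of all. The UTRs of the genes that changed were longer than most, with medians of 1896 bases (fell) and 1794 bases (rose) against 1209 bases. Whether the hairpins act on these words was not tested, and no source used here gives the hairpin sequences.

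By function, the words were found as follows. None of the 7 NF-kB targets that fell (Nfkbia, Nfkbie, Relb, Nfkb1, Mmp9, Ier3 and Tlr2) held either word. Of the whole NF-kB target list 6 of 52 did (11.5%), against 15.9% of all genes with a UTR. Among only 7 genes, finding none is near these shares. Of the targets described above that did not pass the joint test, Tnfaip3 held GAAGCTA, and Ccl2, Il6, Cxcl1 and Icam1 held neither word. Tnfsf11 and Bmpr2 held both words. AGGTGTA was in Yes1, Mmp12, Cd44, Bmpr1a, Atp6v0d1, Ccdc50, Gcsh, Cebpg and Wwc2, and GAAGCTA in Tnfrsf26, Amot, Inhba, Lmo4 and Stard4. Of the genes that rose and are named here, Tnrc6a held AGGTGTA, and Ildr2 and Ulbp1 held GAAGCTA. The NF-kB motif was in the promoter of 19 of 71 fallen genes with neither word (26.8%) and of 8 of 43 with either word (18.6%). Over all genes lower in 6 pairs the shares were 15% and 15.9%, and over all genes tested 12.5% and 12.4%.

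**Figure D5:**
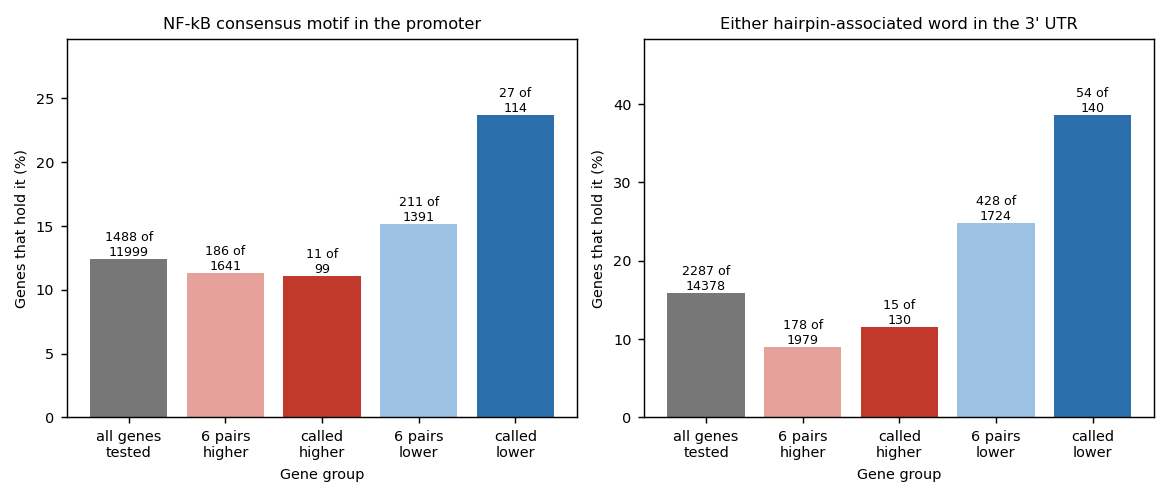
Percent of genes that hold the NF-kB consensus in the promoter (left, from 250 bases before to 50 after the start) or either 7-base word in the 3′ UTR (right), for all genes tested, genes with all 6 pairs higher or lower and genes that rose or fell, with counts above the bars. Fallen genes hold each feature most often, 23.7% and 38.6%, and the words were chosen on the same fold changes.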

How the data were processed

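RNA was sequenced from 9 samples in 3 groups of 3. The deposited table holds raw counts that the authors made, by gene symbol and sample, and all columns were used (0 left out). featureCounts 1.4.6, Subread, Bowtie2 2.2.6, TopHat2 2.0.14 and the genome build mm10 are named per the submitters' processing notes, without roles or settings. Of 24062 genes, 3924 had no count, and 15369 passed edgeR's filterByExpr.

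Groups were taken from sample titles. Counts were tested with edgeR 4.0.16 (R 4.3.3, limma 3.58.1): TMM scaling (factors 0.975 to 1.02), glmQLFit and the two-sided glmQLFTest with the replicate number as a block and both hairpins as 1 group, which leaves 5 residual degrees of freedom. A second model with a mean per group gave each hairpin against shScr and the hairpins against each other. Errors after ± are standard errors of log2 differences from these models. CPM and pair differences used the TMM-scaled library sizes, with a prior count of 2 for log2 values. The code was tested on simulated data.

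The numbers pair the samples: deviations from the group means correlated at 0.189 to 0.415 between same-numbered samples of different groups (9 pairs) and at -0.306 to 0.0459 otherwise (18 pairs).

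Named genes were Rela and 12 fixed genes, the 15 rising and 15 falling genes with the largest weakest pair, up to 4 called genes per list, and the gene at the edge of the rule. Other genes, named to spell out a count or as examples of a list, were chosen after their values were seen. The members and the 38 lists were chosen with earlier results of these data known. Promoters came from RefSeq (GRCm38.p6), and transcripts, 3′ UTRs and exon overlaps came from GENCODE. Of the 270 called genes, 213 matched a promoter and all 270 a transcript. The alternatives were no block, DESeq2 1.42.0, its size factors, no filter, a smaller prior count, a minimum pair difference and leaving out samples.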

Additional observations from a re-analysis of the deposited data

Results flagged for a closer look

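Of the named genes that rose or fell with both hairpins, 24 responded differently to each (edgeR's quasi-likelihood test of shRela-2 against shRela-1, adjusted over all genes). Each value below is the log2 response to shRela-2 minus that to shRela-1, followed by the responses to shRela-1 and shRela-2.

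The fall was larger with shRela-2 for Gjb2 by -0.59 (-0.95 and -1.54), Dnajc19 by -0.57 (-0.82 and -1.39), Tnfrsf26 by -0.51 (-1.03 and -1.54), Nfkbia by -0.17 (-0.46 and -0.63), Acly by -0.15 (-0.45 and -0.60), Suclg2 by -0.13 (-0.31 and -0.44) and Inhba by -0.12 (-0.44 and -0.57). Gjb2 and Tnfrsf26 fell by more than 2-fold with both hairpins together. The fall was larger with shRela-1 for Grem1 by 0.31 (-0.96 and -0.65), Ccdc50 by 0.19 (-0.82 and -0.64), Bmpr1a by 0.16 (-0.44 and -0.29), Egr1 by 0.15 (-0.51 and -0.36), Frmd6 by 0.11 (-0.80 and -0.69), Gcsh by 0.11 (-0.69 and -0.58) and Dkk2 by 0.09 (-0.58 and -0.49). The BMP antagonist Grem1 had the largest difference in this group, with an adjusted p of 5.87e-07.

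The rise was larger with shRela-2 for Tdrp by 0.37 (0.79 and 1.16), Cd151 by 0.32 (0.47 and 0.79), Ildr2 by 0.30 (0.83 and 1.12), Parm1 by 0.19 (0.45 and 0.64), Reck by 0.17 (0.54 and 0.71), Ndufa4 by 0.12 (0.25 and 0.36) and Atp6ap2 by 0.09 (0.22 and 0.30). Cd151 had the lowest adjusted p of the 24, at 5.15e-09. The rise was larger with shRela-1 for Sesn2 by -0.20 (0.54 and 0.33), Nid2 by -0.11 (0.48 and 0.37) and Tnfrsf10b by -0.07 (0.28 and 0.21). Sesn2 and Tnfrsf10b are both in the list of p53 targets.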

How the results depend on the processing

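Against 270 genes called with both hairpins together, all of them members, the fit without the replicate number as a block called 440 (253 higher, 187 lower, 221 shared). Without the block rule, 2034 genes had all hairpin samples beyond all control samples, against 3820 members. Without the block, shRela-1 alone gave 3799 called genes against 6034, and the hairpins differed in 32 of the called genes against 68. DESeq2 called 1273 genes (757 higher, 516 lower), 1269 of them members. The model of 3 group means called 5763, of which 3219 were members, and without shScr replicate 1, 2 or 3 it called 4388, 4573 and 4686, of which 3038, 3170 and 3195 were members. It kept all 74 named called genes each time, which adds no evidence because they were chosen on these same samples. Leaving out samples from the joint test gave 1 to 103 calls, with 1 each (Rela) without replicate number 1, 2 or 3, and the hairpins differed in 41 to 68 of the called genes. With every pair at least 0.1, 1519 genes were members. With no filter on low counts 181 genes were called (80 higher, 101 lower), and 17 of the 74 named called genes were lost, against 13 without the block. No named called gene changed direction in any alternative run. In the list counts without replicate number 2, 2 and 27 NF-kB targets and 24 and 1 lysosomal genes were higher and lower in all remaining pairs. Which calls depth limits was not tested.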

Other observations

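Some genes were singled out after their values were seen. The LIM kinase genes Limk1 and Limk2, whose products phosphorylate the actin-severing protein cofilin, both rose. Limk1 was at 52.6, 51.1 and 53.9 CPM in shScr, 67, 69.9 and 65.2 CPM in shRela-1 and 75.6, 70.6 and 74.1 CPM in shRela-2, a rise of 0.42 (edgeR adjusted p = 0.0264), and Limk2 rose by 0.28 (adjusted p = 0.0264). The CLEAR motif of lysosomal genes, searched as TCACGTGA after the lysosomal counts were seen, was in 5 of 99 promoters of genes that rose (5.05%), in 1 of 114 of those that fell (0.877%) and in 2.02% of promoters of all genes tested. Of the lysosomal list itself 5 of 38 held it (13.2%).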
